A study of Mus musculus with 9 samples.

Results

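The protein disulfide isomerase (PDI) family was examined in mouse embryonic fibroblasts (MEFs), wild type or mutant in oxidases that act upstream of it. It was followed through 10 genes of ER proteins with thioredoxin domains, P4hb, Pdia3, Pdia4, Pdia5, Pdia6, Txndc5, Erp44, Erp29, Dnajc10 and Tmx1, taken by gene symbol from 19938 genes on the array. The MEFs were of 3 genotypes with 3 arrays each, a triple mutant (TM), a double mutant (DM) and wild type (WT). None of the 10 mRNAs passed an adjusted p under 0.05 together with a change over 1.5-fold in TM against WT, DM against WT or TM against DM by limma, and the count was 0 as well with an unadjusted p or with the methods' t-test. Such calls took 9.15%, 10.9% and 8.29% of all genes in those comparisons. The log2 differences of the 10 mRNAs lay between -0.22 and 0.29 in TM against WT, between -0.13 and 0.28 in DM against WT and between -0.17 and 0.29 in TM against DM. Every 95% interval of these differences ended short of 1.5-fold, and the bounds farthest from 0 stood for 1.38-fold in TM against WT, 1.31-fold in DM against WT and 1.35-fold in TM against DM. With no fold limit, small rises passed the adjusted p for Dnajc10 in both mutants, P4hb in DM MEFs and Pdia5 in TM MEFs, and Pdia5 and Pdia6 were higher in TM than in DM MEFs. In RNA from whole cultures, a lower level may stand for fewer cells that make an mRNA or for less of it per cell, which cannot be told apart.

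The labels describe all 9 arrays as cultured MEFs transformed with T antigen, on a C57B/L6 background. The methods give primary MEFs for some figures and MEFs immortalized with T antigen for others. They do not say which were used for the arrays. DM MEFs carry mutant alleles of both ERO1 isoforms (Ero1α m/m, Ero1β m/m), TM MEFs add the Prdx4 knockout on the single X chromosome of a male (Prdx4 m/y), and the labels call the remaining cells wild type. Where the methods describe how MEFs were isolated, the control embryos are heterozygous for the Ero1α mutation and homozygous for that of Ero1β. Their Prdx4 is written as +/+. The Ero1β mutation may thus be common to all 3 genotypes. RNA was hybridised to Affymetrix Gene ST arrays, and a level here is a log2 value after RMA, which corrects background and normalizes the arrays to each other. Whether replicate arrays stand for independent cultures is unknown here, so that errors and p-values measure the spread between arrays, which may be technical.

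Disulfide bonds of secreted proteins are made in the ER by a relay. ERO1 enzymes and PRDX4 oxidize the active-site cysteines of PDI proteins, using oxygen or peroxide, and the oxidized PDIs pass the disulfide on to folding clients. Family members differ in their use, as some oxidize or isomerize disulfides, some reduce them for degradation, some bind clients without a reactive cysteine pair, and P4HB is in addition a subunit of the collagen prolyl hydroxylase.

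The targeted genes were checked first. Ero1a had a log2 level of 9.06 ± 0.076 in TM, 9.46 ± 0.052 in DM and 11.86 ± 0.020 in WT MEFs (SD, n = 3 arrays), and Prdx4 had 6.30 ± 0.41 in TM, 10.68 ± 0.22 in DM and 10.56 ± 0.11 in WT MEFs. Ero1b had 7.94 ± 0.081 in TM, 7.70 ± 0.023 in DM and 7.65 ± 0.11 in WT MEFs. Its mRNA was thus not lower in either mutant. Xist is a long non-coding RNA made in female cells from their silenced X. It was at 5.72 ± 0.099 in TM, 12.56 ± 0.068 in DM and 5.70 ± 0.053 in WT MEFs. High Xist was thus found in DM arrays alone. Cell sex therefore cannot be told apart from genotype in DM against WT and in TM against DM. The methods write the X-linked Prdx4 of the control embryos as +/+, as in female cells, while Xist was low in WT arrays. Whether these WT cells came from such embryos is unknown here. Of 10 fibroblast markers, 9 lay above the array median in TM and 8 each in DM and WT MEFs, but single markers moved apart. In TM 4 of them were called higher than WT, among them Thy1 (2.93) and Dcn (1.83), and in DM 2 were called higher, Dcn (1.14) and Pdgfrb (1.18), and 2 lower, Col1a2 (-1.71) and Pdgfra (-1.91). The summed signal of 8 epithelial and mesothelial markers was 10.58 to 10.74 on the log2 scale in TM, 13.46 to 13.62 in DM and 12.28 to 12.35 in WT arrays. These markers did not move together. Against WT, Upk3b (5.07), Wt1 (4.05), Krt18 (2.69) and Cdh1 (1.14) were called higher and Msln (-1.43) lower in DM. In TM, Msln (-3.61) and Krt19 (-1.81) were called lower than WT. The part of these fibroblast and epithelial differences in the results below was not tested. Of the markers of endothelium, leukocytes and skeletal muscle none was called in either mutant against WT, and 0 of 5, 1 of 6 and 1 of 5 lay above the array median in each genotype.

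P4hb, which encodes PDI itself, had log2 levels of 12.77, 12.69 and 12.66 in TM arrays, of 12.85, 12.81 and 12.85 in DM arrays and of 12.61, 12.66 and 12.59 in WT arrays. All 3 DM arrays lay above all TM and WT arrays, and the 3 TM arrays lay above those of WT by a narrow margin. Its log2 difference was 0.22 in DM against WT (SE 0.054, adjusted p = 0.00645 from limma), a rise of 16.5%, and 0.089 in TM against WT (SE 0.054, adjusted p = 0.267 from limma). The direct difference of TM and DM was -0.13 (adjusted p = 0.0868 from limma), with a 95% interval from -0.25 to -0.013, and passed in 3 of 17 alternatives (adjusted p of 0.0131 to 0.197). The DM rise of P4hb missed the threshold after median centring of the arrays, with a log2 difference of 0.15 (adjusted p = 0.0563 from limma, in a range of 0.00031 to 0.0563 over 17 alternatives that include the methods' t-test).

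Pdia6 encodes a PDI that works beside the chaperone BiP. It had 11.42, 11.30 and 11.43 in TM arrays, 11.11, 11.06 and 11.10 in DM arrays and 11.22, 11.25 and 11.20 in WT arrays. The 3 genotypes did not overlap, with TM above and DM below WT. Pdia6 was higher in TM than in DM MEFs by 0.29 on the log2 scale, or 22.5% (SE 0.057, adjusted p = 0.00165 from limma). Against WT the differences were smaller on either side, at 0.16 in TM (adjusted p = 0.0534 from limma) and -0.13 in DM (adjusted p = 0.0866 from limma). Both lie near the threshold, as the TM difference passed it in 6 of 17 alternatives (adjusted p of 0.00556 to 0.179) and the DM difference in 2 (0.0129 to 0.609).

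Pdia5, which encodes the family member PDIR, had 10.55, 10.44 and 10.66 in TM arrays, 10.29, 10.30 and 10.28 in DM arrays and 10.21, 10.43 and 10.14 in WT arrays. The TM arrays were the highest, though the lowest of them stood only just above the highest WT array, and DM lay within the WT range. It rose by 0.29 in TM against WT (22.2%, SE 0.080, adjusted p = 0.0146 from limma) and was higher by 0.26 in TM than in DM MEFs (SE 0.080, adjusted p = 0.0256 from limma). Its DM difference from WT was 0.027, with a 95% interval from -0.15 to 0.20. Pdia5 passed in 13 of 17 alternatives in TM against WT (adjusted p of 0.00262 to 0.154, the highest with the methods' t-test) and in 9 of 17 in TM against DM (0.0132 to 0.102). The log2 difference kept its direction throughout, between 0.23 and 0.37 in TM against WT and between 0.21 and 0.32 in TM against DM. In TM against WT it was 0.23 without TM replicate 3 (adjusted p = 0.0695 from limma), 0.27 without WT replicate 1 (0.0576) and 0.23 without WT replicate 3 (0.0751). In TM against DM the adjusted p from limma lay between 0.0519 and 0.102 without each of DM replicates 1, 2 and 3 and of TM replicates 1 and 3, and with all arrays it missed the threshold under array weights (0.0518), with all probe sets (0.0597) and in the methods' t-test (0.0731).

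The other catalytic members had overlapping arrays in most comparisons. Pdia3 (ERp57), the isomerase that calnexin and calreticulin present with glycoproteins, was at 12.74 to 12.83 in TM, 12.49 to 12.79 in DM and 12.68 to 12.72 in WT arrays. DM arrays spread the most in this gene, with an SD of 0.15 against 0.056 in TM and 0.022 in WT MEFs. Its log2 difference from WT was 0.070 in TM (95% interval -0.090 to 0.23) and -0.077 in DM (-0.24 to 0.084). Pdia4 (ERp72), which has 3 thioredoxin-like active sites, was at 12.39 to 12.55 in TM, 12.26 to 12.39 in DM and 12.29 to 12.39 in WT arrays, and 3 arrays, 1 of each genotype, hold an identical value. Its differences were 0.13 in TM against WT (adjusted p = 0.164 from limma), -0.020 in DM against WT (adjusted p = 0.842 from limma) and 0.15 in TM against DM (adjusted p = 0.099 from limma). A dimmer probe set of Pdia4, below the array median on all 9 arrays, differed from it, at 6.80 ± 0.063 in TM, 6.86 ± 0.013 in DM and 7.19 ± 0.048 in WT MEFs (SD, n = 3), with log2 differences from WT of -0.39 in TM (adjusted p = 0.000674 from limma over all probe sets) and -0.34 in DM (adjusted p = 0.00141 from limma over all probe sets). The signs of the probe sets are opposite in TM against WT and both negative in DM against WT. The dimmer one is annotated to a single predicted transcript, while the brighter one is annotated to the curated transcript as well. Txndc5 (ERp46), which introduces disulfides into clients, was at 12.01 to 12.17 in TM, 12.03 to 12.26 in DM and 12.17 to 12.28 in WT arrays, with log2 differences from WT of -0.099 in TM (95% interval -0.26 to 0.062) and -0.037 in DM (-0.20 to 0.12).

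Several PDI genes are known targets of the unfolded protein response, which acts through the ER stress response element (ERSE). Promoter windows of RefSeq (GRCm38.p6, 250 bases before to 50 bases after a start) were therefore searched on both strands, and 9 of the 10 members had at least 1 window. The ERSE, written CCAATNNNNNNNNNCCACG with N for any base, was found in 0.119% of 32851 windows of the genome and in 1 of these 9 members, Pdia6. With the last letter left free (CCAATNNNNNNNNNCCACN, a form that includes the first and was searched after it), 0.365% of all windows had a match, as did Pdia3, Pdia4 and Pdia6. The shorter element ERSE-II was in 0.0365% of windows and in none of the 9 members, and the element TGACGTGG bound by XBP1 and ATF6 was in 0.676% of windows and in 1 of 3 windows of Txndc5. Among the ER chaperone and unfolded protein response genes, 6 of the 13 with a window had the full ERSE. Among the other PDI family genes listed below, 0 of the 11 with a window had it, and 0 had the form with a free last letter. Genes were counted once if any window matched, whereas the shares of the genome are per window. The windows of Pdia6, Pdia4 and Pdia3 are shown for their matches, given in capitals. Those of Dnajc10 and P4hb are shown because these mRNAs passed the adjusted p in DM against WT and their windows held no match. The windows of Pdia5, Erp44 and Tmx1 held no match either and are not shown. Counted from the start base as 0, the match of Pdia6 runs from -98 to -80 on the strand of the gene, that of Pdia4 from -108 to -90 on the opposite strand and that of Pdia3 from -29 to -11 on the strand of the gene.
Pdia6 (chr12:17266339-17266638, + strand): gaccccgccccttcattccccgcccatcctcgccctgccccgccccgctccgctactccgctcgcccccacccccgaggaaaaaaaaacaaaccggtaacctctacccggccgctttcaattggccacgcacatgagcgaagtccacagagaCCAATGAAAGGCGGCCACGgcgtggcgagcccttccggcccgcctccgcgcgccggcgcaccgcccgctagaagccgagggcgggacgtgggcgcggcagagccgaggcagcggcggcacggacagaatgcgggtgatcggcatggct
Pdia4 (chr6:47813463-47813762, - strand): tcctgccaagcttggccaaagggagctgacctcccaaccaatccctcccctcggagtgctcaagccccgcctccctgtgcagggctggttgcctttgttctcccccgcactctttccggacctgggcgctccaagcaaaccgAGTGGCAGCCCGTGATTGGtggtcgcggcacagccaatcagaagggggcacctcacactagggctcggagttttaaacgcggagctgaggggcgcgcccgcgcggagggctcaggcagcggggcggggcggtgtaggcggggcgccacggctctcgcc
Pdia3 (chr2:121413652-121413951, + strand): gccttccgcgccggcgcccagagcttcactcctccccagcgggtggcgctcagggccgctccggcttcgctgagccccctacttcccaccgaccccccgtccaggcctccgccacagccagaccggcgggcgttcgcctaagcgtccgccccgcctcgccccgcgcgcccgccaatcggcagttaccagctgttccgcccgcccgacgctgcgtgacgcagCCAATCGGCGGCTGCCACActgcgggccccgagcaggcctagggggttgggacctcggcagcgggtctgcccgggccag
Dnajc10 (chr2:80315216-80315515, + strand): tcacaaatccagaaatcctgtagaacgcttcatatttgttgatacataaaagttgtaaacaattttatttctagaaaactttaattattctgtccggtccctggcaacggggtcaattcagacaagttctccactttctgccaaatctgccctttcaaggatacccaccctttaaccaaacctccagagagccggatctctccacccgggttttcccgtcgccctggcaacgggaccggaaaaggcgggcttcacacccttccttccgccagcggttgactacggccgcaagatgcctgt
P4hb (chr11:120573204-120573503, - strand): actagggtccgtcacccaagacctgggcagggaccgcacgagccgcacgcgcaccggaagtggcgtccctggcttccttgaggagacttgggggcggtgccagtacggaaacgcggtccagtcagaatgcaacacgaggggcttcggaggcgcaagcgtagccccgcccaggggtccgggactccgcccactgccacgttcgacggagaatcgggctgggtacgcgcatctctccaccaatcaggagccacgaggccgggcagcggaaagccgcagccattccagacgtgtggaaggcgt
A match describes these letters only. Of the 3 members with a match, Pdia6 had the difference between TM and DM given above, while the differences of Pdia3 and Pdia4 did not pass in any comparison with the deposited values of all 9 arrays and the brighter probe set. Without DM replicate 3, Pdia3 was higher in TM than in DM MEFs by 0.23 (adjusted p = 0.0143 from limma, 0.0143 to 0.462 over 17 alternatives).

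Dnajc10 showed the same direction in both mutants. It encodes ERdj5, a DnaJ protein that reduces disulfides of misfolded clients with BiP before their degradation. Its log2 levels were 10.64, 10.61 and 10.69 in TM arrays, 10.64, 10.71 and 10.71 in DM arrays and 10.45, 10.38 and 10.40 in WT arrays. Each array of either mutant lay above each WT array, while the arrays of TM and DM overlapped. Dnajc10 rose by 0.24 in TM (17.7%, SE 0.055, adjusted p = 0.00494 from limma) and by 0.28 in DM MEFs (21.1%, SE 0.055, adjusted p = 0.00146 from limma). The difference of TM and DM was -0.040, with a 95% interval from -0.16 to 0.079. The comparisons of TM and DM share their WT arrays and are not independent of each other.

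Erp44, which holds clients and ERO1 back in the early secretory pathway through a single reactive cysteine, was at 10.45, 10.42 and 10.59 in TM arrays, 10.37, 10.41 and 10.62 in DM arrays and 10.29, 10.34 and 10.32 in WT arrays. Both mutants lay above WT without overlap, by 0.17 in TM (adjusted p = 0.111 from limma) and 0.15 in DM (adjusted p = 0.141 from limma), and their spread was wider than that of WT. Both differences of Erp44 passed after quantile normalization and cyclic loess of the arrays and under no other alternative (adjusted p of 0.0159 to 0.339 in TM and 0.0162 to 0.466 in DM). Erp29, a chaperone of the family without a reactive cysteine pair, was at 9.29, 9.14 and 9.41 in TM arrays, 9.47, 9.43 and 9.43 in DM arrays and 9.41, 9.74 and 9.37 in WT arrays. WT replicate 2 was the highest of the 9 arrays and the rest of WT lay among the mutants. The log2 difference of Erp29 was -0.22 in TM against WT (adjusted p = 0.101 from limma) and -0.11 without WT replicate 2, and in DM against WT it was -0.055, or 0.062 without that array. Tmx1, a membrane-bound member that acts on membrane proteins, was at 11.37 to 11.52 in TM, 11.20 to 11.49 in DM and 11.25 to 11.42 in WT arrays, with log2 differences from WT of 0.11 in TM (95% interval -0.069 to 0.28) and -0.019 in DM (-0.19 to 0.16).

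**Figure D1:**
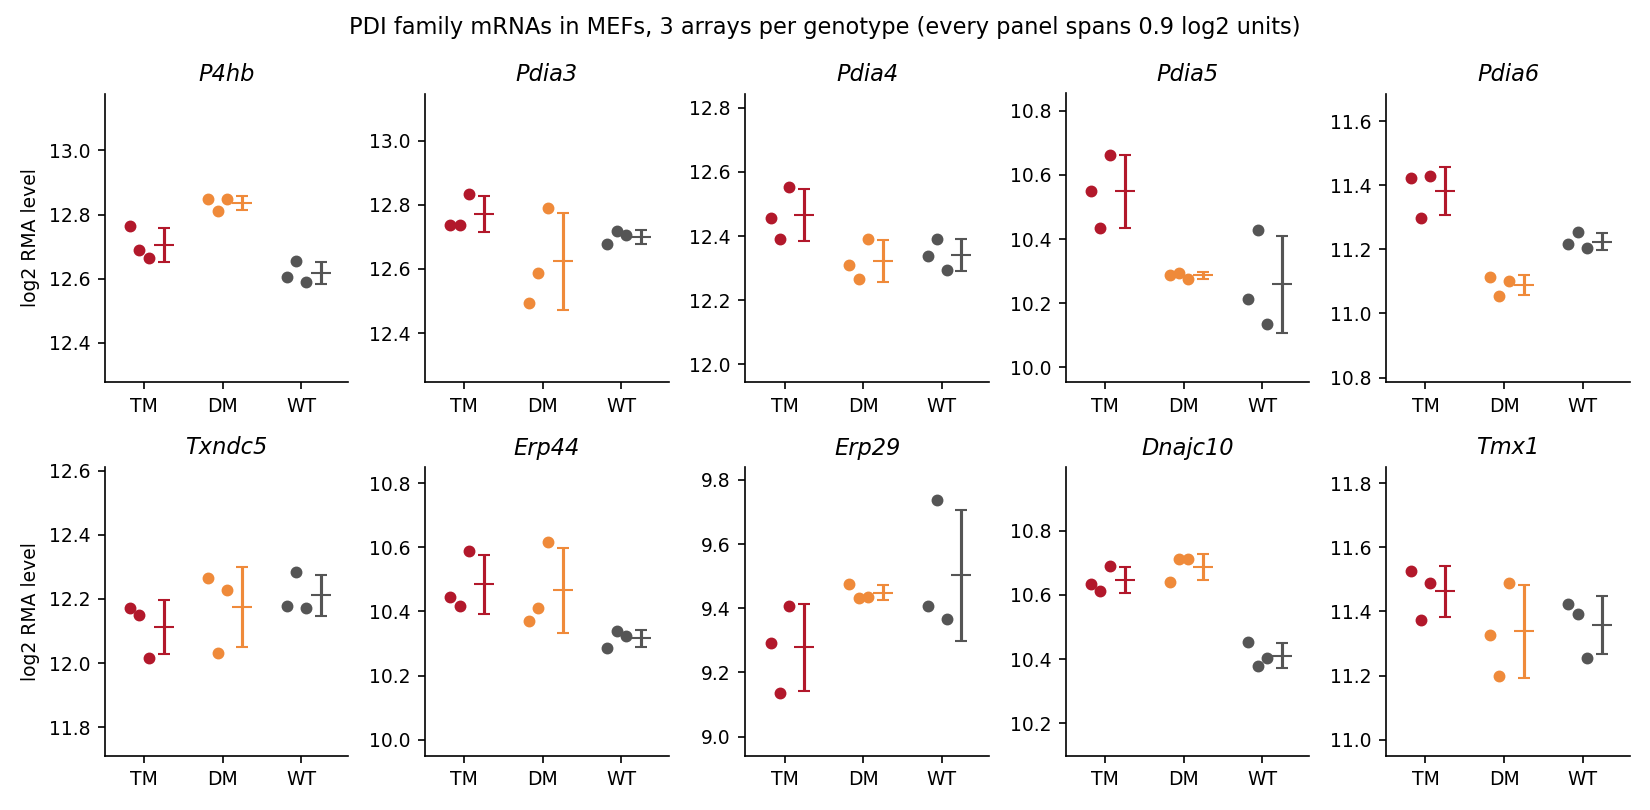
Log2 RMA levels (vertical axis) of the 10 PDI family mRNAs in TM (red), DM (orange) and WT (grey) MEFs, with the mean and SD of 3 arrays beside the single arrays (points). All panels span the same height, and Dnajc10 lies above WT in both mutants while the Pdia6 arrays of TM lie at 11.30 to 11.43 and those of DM at 11.06 to 11.11.

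Within a genotype the SD of the 10 mRNAs was 0.064 in the median of 30 values and at most 0.20. Without a fold limit, an adjusted p under 0.05 was reached by 2 of 10 members in TM against WT, by 2 in DM against WT and by 2 in TM against DM, each time as the higher value. The same threshold was reached by 13.8% of all genes as higher and 18% as lower in TM against WT, by 17% and 19.8% in DM against WT and by 15.4% and 16.5% in TM against DM. In TM against WT 6 members lay above and 0 below WT without overlap of arrays, where 18.3% of all genes lay above and 25.1% below. In DM against WT 3 members lay above and 1 below, where 22.5% and 23.9% of all genes did. In TM against DM 2 lay above and 2 below, where 18.5% and 21.6% did. The median size of the log2 difference, whatever its sign, was 0.14 in the members and 0.11 in all genes in TM against WT, 0.066 and 0.14 in DM against WT, and 0.14 and 0.13 in TM against DM.

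**Figure D2:**
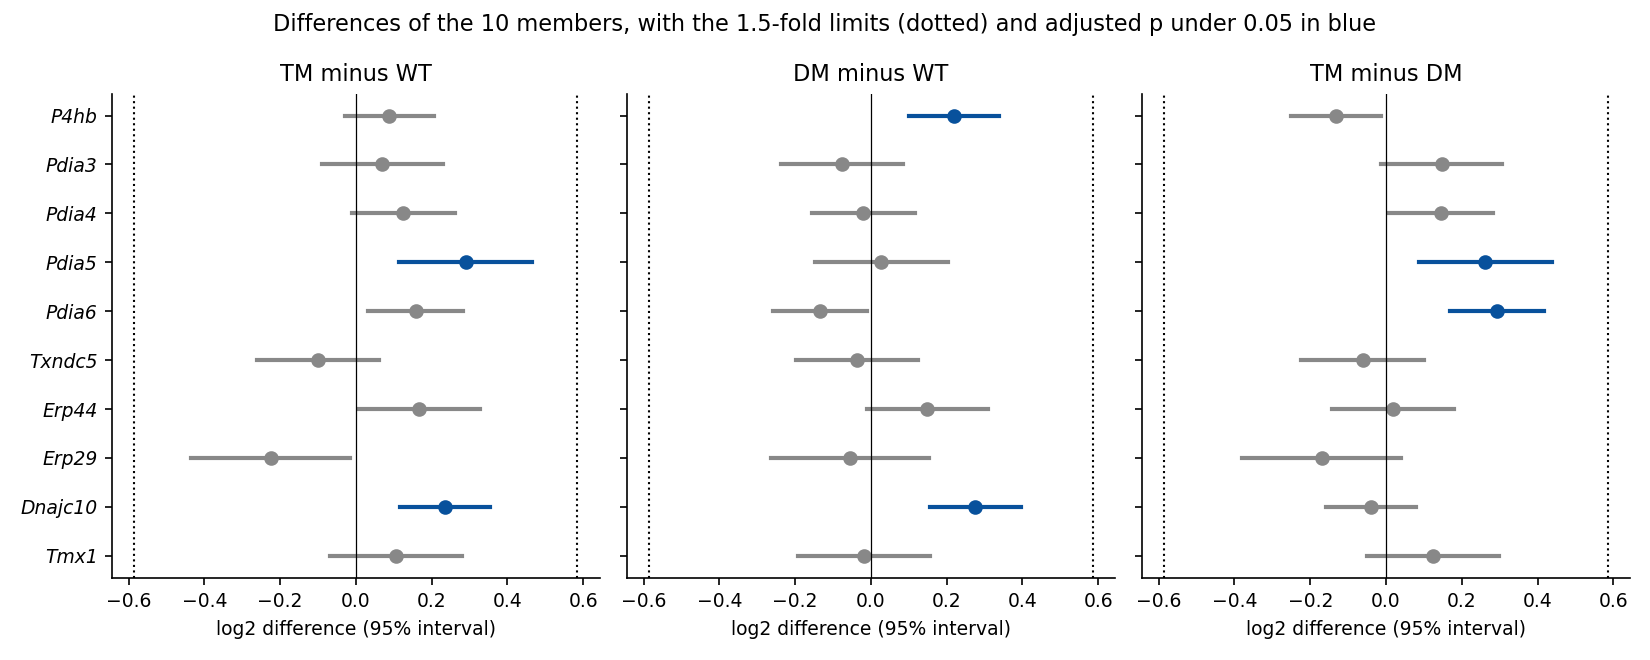
Log2 differences (points) and 95% intervals (bars) of the 10 members in TM minus WT, DM minus WT and TM minus DM, from limma over 9 arrays. Blue marks an adjusted p under 0.05 over all genes, and no interval reaches the dotted 1.5-fold limits on either side.

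Genes that surround the family were counted from lists, against all genes of which 5.59% were called higher and 3.56% lower in TM against WT, 5.28% and 5.67% in DM against WT, and 4.68% and 3.61% in TM against DM. Of 12 other genes of the PDI family only Txndc16, which encodes a luminal thioredoxin-domain protein, was called, with log2 levels of 9.42 ± 0.11 in TM, 8.88 ± 0.13 in DM and 8.38 ± 0.14 in WT MEFs (SD, n = 3). It rose by 1.03 in TM MEFs (SE 0.089, adjusted p = 1.52e-06 from limma), and its difference in DM was 0.50 (adjusted p = 0.000701 from limma), short of 1.5-fold. The median log2 difference of the 12 was 0.055 in TM and 0.074 in DM against WT, where that of the 10 members was 0.12 and -0.019 and that of all genes -0.029 and 0.025. With no fold limit 3 of the 12 were higher and 0 lower in TM, and likewise in DM. The shares of all genes at this threshold were 13.8% higher and 18% lower in TM, and 17% and 19.8% in DM.

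Among 9 genes of ER thiol oxidants and peroxidases, 2 rose and 2 fell in TM MEFs, and 0 rose and 2 fell in DM MEFs. The falls in TM were those of the targeted Ero1a and Prdx4. Qsox1, a thiol oxidase of the secretory pathway that needs no PDI, rose by 0.61 in TM (adjusted p = 5.02e-06 from limma), and Gpx7, an ER peroxidase that oxidizes PDI, by 0.81 (adjusted p = 4.06e-07 from limma). In DM MEFs Qsox1 had a log2 difference of -0.14 and Gpx7 of 0.27, while Qsox2 fell by 0.60 (adjusted p = 3.45e-05 from limma) beside Ero1a. Ero1b had log2 differences of 0.29 in TM and 0.055 in DM against WT and was not called. With no fold limit 4 of the 9 were higher and 2 lower in TM, and 1 was higher and 2 lower in DM, at the threshold that 13.8% of all genes passed as higher and 18% as lower in TM and 17% and 19.8% in DM.

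Of 11 partners and clients of the members measured, 1 was called in each comparison, a share near that of all genes. In each mutant it was P4ha3, which encodes a catalytic subunit that P4HB completes to a collagen prolyl hydroxylase, which rose by 3.04 in TM and 3.38 in DM MEFs (adjusted p = 1.16e-09 and 3.78e-10 from limma). The other catalytic subunits were not called, with P4ha1 at -0.40 in TM and 0.083 in DM and P4ha2 at -0.33 and -0.26. Canx and Calr, the lectin chaperones that work with Pdia3, had differences of 0.14 and -0.13 in TM and of 0.24 and -0.13 in DM. Tapbp, which encodes tapasin, the partner of ERp57 in loading MHC class I molecules, was lower in TM than in DM MEFs, with a log2 difference of -0.78 (adjusted p = 6.73e-07 from limma). With no fold limit 3 of the 11 were higher and 3 lower in TM, and 4 were higher and 2 lower in DM. The shares of all genes were 13.8% higher and 18% lower in TM, and 17% and 19.8% in DM.

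Of 15 ER chaperone and unfolded protein response genes, which share Canx, Calr and Hspa5 with the partners, 2 rose and 0 fell in TM MEFs, and 0 were past 1.5-fold in DM MEFs with either an adjusted or an unadjusted p under 0.05 from limma. With no fold limit 5 of the 15 were higher and 0 lower in TM, where Ddit3 (0.56), Sdf2l1 (0.55) and Dnajc3 (0.38) stayed short of 1.5-fold. In DM 2 were higher, Canx and Xbp1, and 4 lower, Herpud1 (-0.35), Hyou1 (-0.33), Creld2 (-0.38) and Hspa5. Of all genes, 13.8% were higher and 18% lower in TM at this threshold, and 17% and 19.8% in DM. Dnajb9, which encodes the DnaJ protein ERdj4, rose by 1.05 in TM (adjusted p = 6.34e-07 from limma), and Herpud1, a component of ER-associated degradation, by 0.63 (adjusted p = 2.78e-06 from limma). Both were higher in TM than in DM as well, by 1.00 and 0.98, as was the stress transcription factor gene Ddit3 (CHOP), by 0.62. Hspa5, which encodes BiP, had differences of -0.059 in TM and -0.18 in DM against WT. The median of the 15 was 0.056 in TM and -0.092 in DM against WT, and 0.14 in TM against DM, where the median of the 10 PDI members was 0.071 and that of all genes -0.046.

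**Figure D3:**
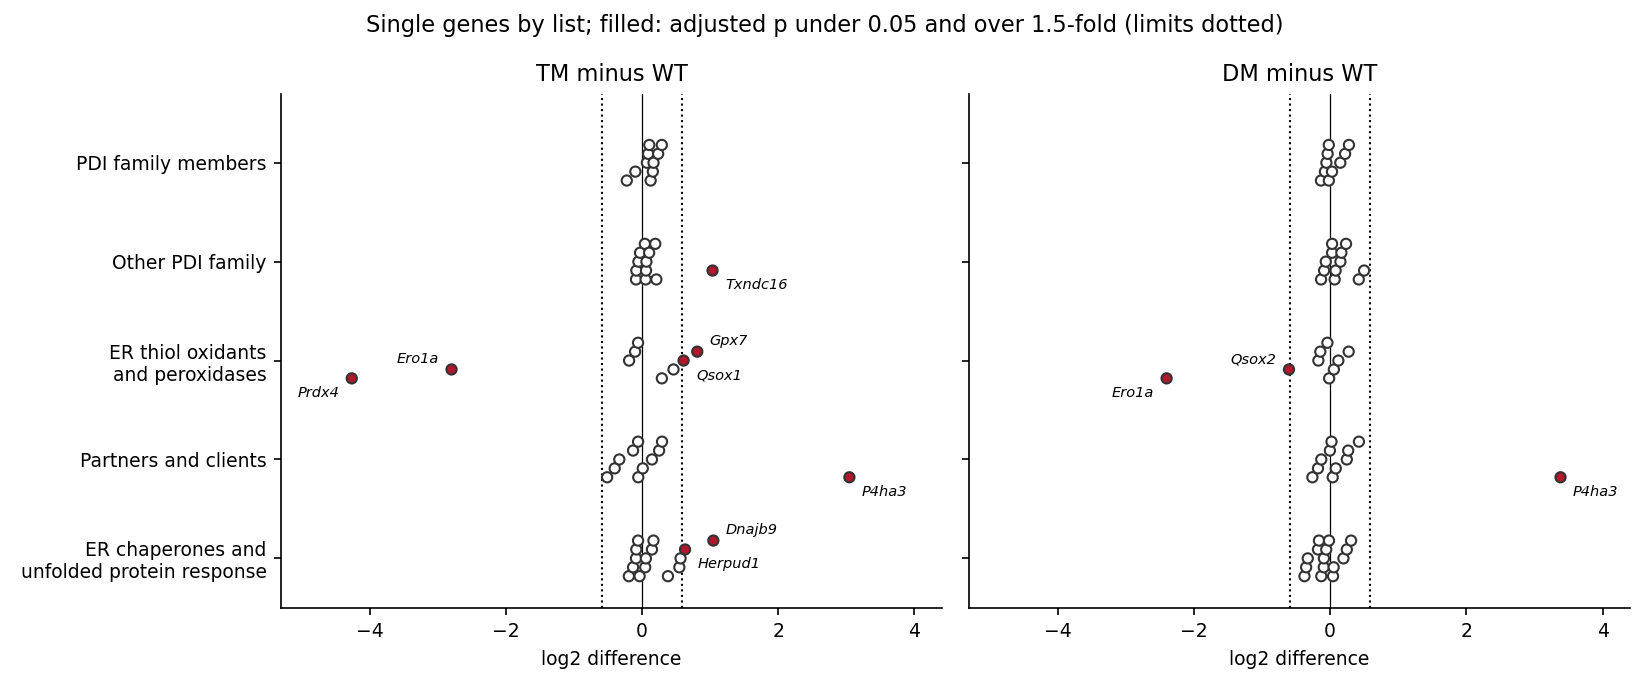
Log2 differences of single genes (points, horizontal axis) in TM minus WT and DM minus WT for the 10 PDI family members and 4 lists of related genes. Filled and named points passed the adjusted p and the 1.5-fold limit (dotted), and the members have none, while Prdx4 lies at -4.26 and Ero1a at -2.80 in TM.

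The profiles most like those of the 3 members with the widest range of genotype means were sought over the 9 arrays, as a description. With Pdia6 the highest Pearson correlations were those of Ndrg4 (0.98), Tnfrsf11a (0.98) and Gas2 (0.97), and 52 genes exceeded 0.95. With Dnajc10 they were those of Ccnt2 (0.99), Arhgap44 (0.99) and Ap1s3 (0.98), and 154 genes exceeded 0.95. With Pdia5 they were those of Rxylt1 (0.97), Oat (0.97) and Rer1 (0.96), and 5 genes exceeded 0.95. The 9 points share 3 genotypes and 1 normalization.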

How the data were processed

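MEFs of 3 genotypes were profiled on Affymetrix Gene ST arrays, in triplicate RNA samples. The authors converted image data with GCOS and analysed them in GeneSpring with RMA and PLIER, and for each of 35556 probe sets they deposited a log2 value computed by RMA. PLIER values were not used here. RMA removes overall differences between arrays, so that a shift of total RNA is not measured, and array medians were 7.62 to 7.72.

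Probe sets with 1 gene symbol in the platform annotation (21789, beside 1621 with several and 12146 with none) were named through RefSeq identifiers, and the brightest per gene over the 9 arrays was kept (19938 genes). All 9 arrays were fitted by genotype with limma 3.58.1 in R 4.3.3. A call needs a Benjamini-Hochberg adjusted p under 0.05 over all genes and over 1.5-fold, the fold limit of the study's methods. The 95% intervals are limma's, unadjusted. The fit was tested on simulated data. Members and lists were chosen with earlier results of these data known. Named are all 10 members, the mutated genes, up to 4 called genes per list and comparison, set partner genes and the closest profiles. Xist, single cell type markers and the chaperone genes that passed only with no fold limit lie outside this rule and were chosen after their values were seen. Student's test, which the study's methods name in general but not for the arrays, is called the methods' t-test. Alternatives were other thresholds, tests, scalings, filters, variance models, probe set choices and each array left out, and the fit of all probe sets together was added after seeing the data.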

Additional observations from a re-analysis of the deposited data

Results flagged for a closer look

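The mutants differed from WT by unequal amounts, as tested by the direct contrast of TM and DM in limma, in 2 members at an adjusted p under 0.05 with no fold limit, neither past 1.5-fold, and in 6 genes of the lists at the same adjusted p and over 1.5-fold. Pdia6 had a log2 difference of 0.29 in TM against DM, higher in 3 of 3 TM arrays than in each DM array, with TM above and DM below WT. Pdia5 had 0.26, also without overlap of the arrays, and the adjusted p of this difference passes 0.05 in 9 of 17 alternatives. Among the genes of the lists past 1.5-fold the differences were -4.38 for Prdx4, knocked out in TM alone, 0.75 for Qsox1, -0.78 for Tapbp, 1.00 for Dnajb9, 0.98 for Herpud1 and 0.62 for Ddit3. With no fold limit the adjusted p passed in TM against DM for 2 of 12 other PDI genes, 7 of 9 oxidants and peroxidases, 4 of 11 partners and 5 of 15 chaperone and unfolded protein response genes. Of all genes, 15.4% passed it as higher and 16.5% as lower. Of the 10 members, 2 passed as higher and 0 as lower, so that their count is near the share of all genes. Of the markers, 6 of 8 of epithelium and mesothelium and 5 of 10 of fibroblasts were called between TM and DM, and Xist differs as well, and their part in these differences was not tested.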

How the results depend on the processing

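No member was called in any comparison with the 1.5-fold limit or a 2-fold limit, under each scaling, filter, variance model, choice of probe set or test, and without any single array. With an adjusted p under 0.05 and no fold limit, 2 members were higher in each of the 3 comparisons. Under 17 settings per comparison no 95% interval reached 1.5-fold, with farthest bounds of 1.38 to 1.45-fold in TM against WT, 1.26 to 1.39-fold in DM against WT and 1.33 to 1.42-fold in TM against DM. The rises of Dnajc10 in both mutants and the difference of Pdia6 between TM and DM passed the adjusted p in 17 of 17 alternatives. Beyond those in the report, the adjusted p passed for Pdia4 in TM against WT with cyclic loess (0.18, adjusted p = 0.0283 in a range of 0.0283 to 0.426) and in DM against WT with the mean of both probe sets (-0.18, adjusted p = 0.0195 in a range of 0.0195 to 0.968), and for Erp29 in TM against WT with median centring (-0.28, adjusted p = 0.034 in a range of 0.034 to 0.406).

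Signs turned only for differences of at most 0.13 on the log2 scale, 21 values of 8 differences, none past the adjusted p, and the cause was not tested. In TM against WT, Pdia4 was at -0.13 with the mean of both its probe sets, which includes the dim one. In DM against WT, Pdia5 was at -0.044 with median centring, quantile normalization gave Pdia4 0.058, Txndc5 0.047 and Tmx1 0.058, cyclic loess gave Pdia3 0.020, Pdia4 0.076, Txndc5 0.058 and Tmx1 0.072, and array weights gave Txndc5 9.11e-07. In TM against DM, Erp44 was at -0.00042 with quantile normalization. Leaving out single arrays gave ranges in DM against WT of -0.094 to 0.051 for Tmx1, -0.055 to 0.0088 for Pdia4, -0.12 to 0.062 for Erp29, -0.034 to 0.11 for Pdia5 and -0.082 to 0.035 for Txndc5, and in TM against DM of -0.034 to 0.094 for Erp44. Median centring moved the share of higher calls among all calls in DM against WT to 38.9%, from 48.2% on the deposited scale, and no scaling moved the median of all genes by over 0.1.

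The labels do not say whether a replicate number marks a shared animal or day. The correlation of same-numbered deviations was -0.24 to 0.17, and 1 of 9 arrays was closest to its own number. With the replicate block 0 members were called, and all-gene calls numbered 1824 in TM against WT, 2184 in DM against WT and 1653 in TM against DM. The number of arrays limits the precision.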
